A study of Homo sapiens with 12 samples.

Results

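Mutually exclusive exon pairs are 2 alternative exons between the same flanking exons, annotated so that a transcript holds one or the other. The deposited splicing table lists 17838 such events, each with reads counted for a form with the exon nearer the 5′ end of the transcript and for a form with the exon nearer the 3′ end. Members were the 13179 events (73.9% of those listed, in 4972 genes) that were chosen by 2 measured values: reads over both forms, averaging 20 or more over the 6 libraries, and the share of the rarer form, 5% or more of all reads. Read number and the balance of the 2 forms are therefore given only as a description. Across the 5 kinds of splicing event in the series, 37445 of 145447 listed events passed the same rule.

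The cells were T-47D, an established luminal breast cancer line that carries the estrogen receptor. They were kept for 24 h with 1 µM palbociclib, an inhibitor of the cell cycle kinases CDK4 and CDK6, or with the solvent DMSO. Poly(A) RNA was sequenced from 3 libraries per treatment, and open chromatin was measured by ATAC-seq in another 3 per treatment. All libraries come from this 1 line, labelled as wild type. The labels call the ATAC-seq replicates biological but do not say whether the RNA-seq replicates were separate cultures, so the RNA p-values measure the spread between these samples, which may be technical. Of 9 luminal epithelial markers, all 9 were measured, with mean levels from 45.7 to 2515 FPKM. Of these, 8 were higher with palbociclib by limma, with a median log2 change of 0.25, against 20.9% of all genes tested. Of 11 markers of other cell types, 5 had a level, and the summed level of those was 35.0 to 37.1 FPKM with palbociclib and 34.4 to 35.2 FPKM with DMSO. Most of it was COL1A1 (means of 25.12 with palbociclib and 23.65 with DMSO) and ACTA2 (8.90 and 9.04). VIM was at 1.92 and 1.58, COL1A2 at 0.315 and 0.453 and CD68 at 0.144 and 0.0614 FPKM. Reads on members ranged from 13475266 to 19364114 per library.

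In a true mutually exclusive pair the spliceosome joins the upstream exon to one alternative exon and then to the downstream exon, passing over the other alternative exon. Such exons often arose by duplication, are of like length and lie close together, and the choice swaps one stretch of protein for another without shifting the reading frame. Pairs of this kind are known in tropomyosins, in pyruvate kinase M, in fibroblast growth factor receptors and in ion channels. RNA-binding proteins such as PTBP1, the hnRNP proteins and the ESRP proteins set the choice in several of them.

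Most members were not exclusive at their junctions. Junction reads that tell the arrangement of the 2 exons apart fall into 4 classes: the 5′ exon joined past the 3′ exon, the 3′ exon joined past the 5′ exon, both exons joined to each other, and both exons skipped. The first 2 classes are called exclusive. Among the 11765 members with at least 30 such reads over the 6 libraries, 8089 (68.8%) had at most 5% of them in the exclusive classes, and 374 (3.18%) had at least 80%. The median exclusive share over all members was 2.20%. A junction joining the 2 alternative exons is listed among the skipped exon events for 12312 members (93.4%), and a junction skipping both for 5273 (40.0%). Only 409 members (3.10%) had neither in that table.

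**Figure D1:**
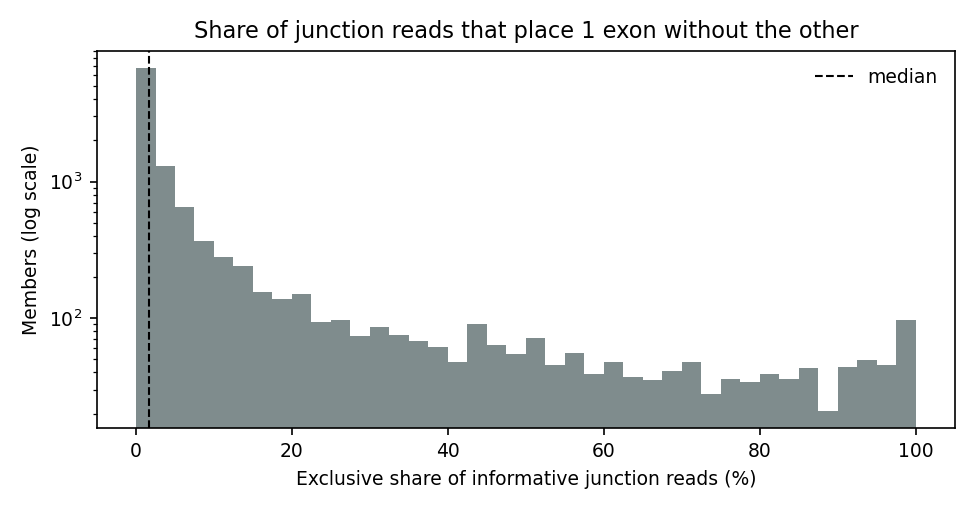
Histogram of the exclusive share of informative junction reads (percent, x axis) over the 11765 members with at least 30 such reads. The y axis is the number of members on a log scale, and the dashed line is the median of the members plotted. Most members lie at the left edge, with 68.8% at a share of at most 5%.

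The lengths of the 2 exons were seldom alike across the members as a whole. Both the 5′ and the 3′ exons had a median length of 117 bases, and the 2 exons of a pair differed by a median of 45 bases. Equal lengths were found in 167 members (1.27%), and 4940 (37.5%) differed by a multiple of 3, the step that keeps the reading frame when one exon replaces the other. Of all members, 5815 (44.1%) paired 2 exons of 52 to 150 bases. A further 2277 paired such a 5′ exon with a longer 3′ exon, and 2256 had the reverse order. The 12229 distinct exon pairs fell into 10106 combinations of lengths, of which 8414 occurred once. The commonest combinations, 114 with 114 bases and 117 with 123 bases, each occurred in 7 pairs. The stretch between the 2 exons had a median of 3060 bases.

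Events that share an alternative exon were joined into 6876 exon groups, of which 4246 held 1 event. The largest group held 57 events and lay in PVT1, a long noncoding RNA gene with 58 members. SNHG17, a small nucleolar RNA host gene, had 41. Such events repeat the same exons with other partners and are not separate observations.

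A small set of pairs did look exclusive at their junctions. These 34 members had at least 80% exclusive reads, at least 30 exclusive reads for the rarer exon (and at least 5% of the exclusive reads), and counts within 4-fold of each other at the 2 junctions of each exon. This definition was set after the values had been seen, the balance of junctions last, and without that last condition 46 members passed. The set is therefore a description and received no test of its own. For 7 of the 34 the skipped exon table lists no junction joining or skipping both, so their exclusive share could not fall below 100%. The 34 members formed 32 exon groups in 32 genes. Equal lengths made up 14 of the 34 (41.2%), against 1.2% of the remaining members. The lengths differed by a multiple of 3 in 28 (82.4%), against 37.4%, and the median stretch between the exons was 346.5 bases, against 3068. Exclusive share alone did not go with these lengths to the same degree: of the 370 members with a share over 80%, 5.68% had equal lengths and 43.2% a difference that was a multiple of 3.

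**Figure D2:**
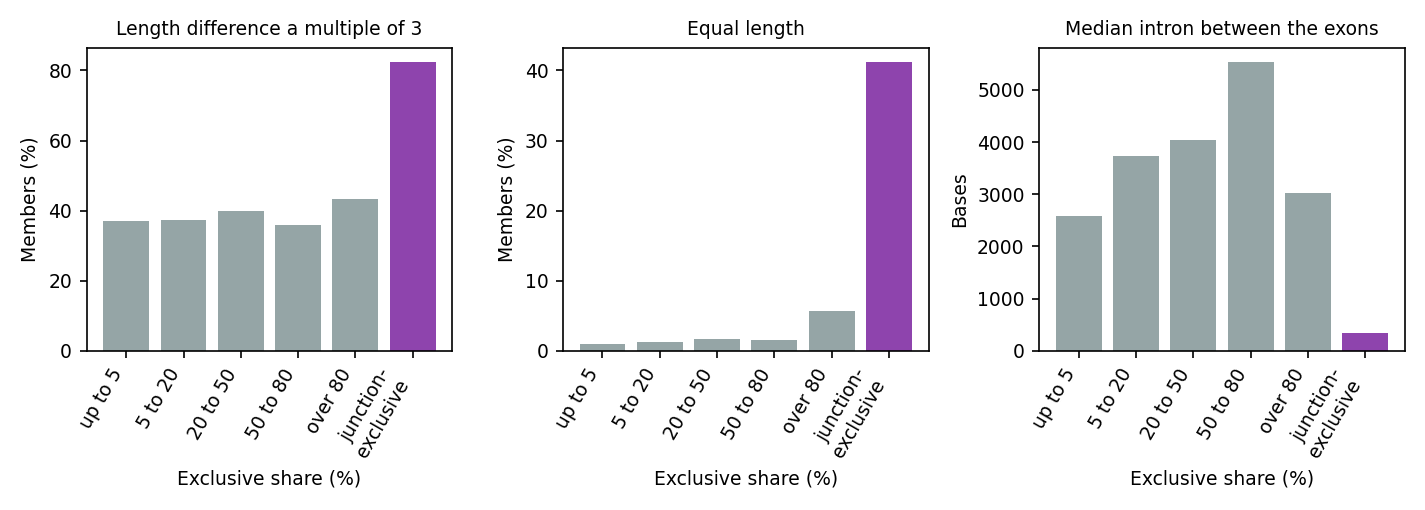
Bars give the percent of members whose lengths differ by a multiple of 3, the percent with equal lengths, and the median stretch between the exons in bases, by exclusive share of junction reads, with the 34 junction-exclusive members last. The last bar stands at 82.4%, 41.2% and 346.5 bases.

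Several of the junction-exclusive pairs are textbook ones. CALU, which encodes the calcium-binding protein calumenin, has 2 exons of 194 bases that lie 73 bases apart on chromosome 7 (GRCh38, 128754262-128754455 and 128754529-128754722). Over the 6 libraries 3533 reads joined the 5′ exon past the other and 1206 the 3′ exon, while 25 joined both. RAB6A, a small GTPase of Golgi transport, has 2 exons of 106 bases that lie 66 bases apart, with 2008 and 2961 exclusive reads and 3 reads joining both. MACROH2A1 encodes a histone H2A variant with a macrodomain, and its exons of 100 and 91 bases had 16455 and 1318 exclusive reads with 22 joining both. In MAPK14, the stress kinase p38 alpha, the 2 exons of 80 bases had 1234 and 755 exclusive reads. Reads joining or skipping both were counted as 0, which an unlisted junction also gives. The collagen prolyl hydroxylases P4HA1 (71 with 71 bases) and P4HA2 (60 with 66 bases) had 798 and 1129, and 1213 and 957. FGFR1, a receptor of fibroblast growth factors, has exons of 151 and 145 bases for part of its membrane-proximal immunoglobulin domain, with 257 and 287 exclusive reads. ACP1, a low molecular weight tyrosine phosphatase, has 2 exons of 114 bases that lie 41 bases apart on chromosome 2 (272037-272150 and 272192-272305), with 2673 and 893.

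Of the 40 textbook genes listed for such exons, 23 had a member and 10 had a junction-exclusive one. In 10 of the 23, under 20% of the informative junction reads of the named member were exclusive, in FGFR2 out of 9 reads. The PKM member paired exons of 167 and 182 bases, and 27416 reads joined the 2 while 22 were exclusive. TPM1, TPM3 and ACTN1, which encode tropomyosins and an actinin of the actin cytoskeleton, had 10229, 38200 and 6934 reads joining both exons and at most 19 exclusive reads each. No member of a textbook gene passed the edgeR test of treatment. Among the members nearest in length, 1 per gene, the lowest adjusted p was 0.317, for FGFR1. For MACROH2A1 the member nearest in length pairs exons of 107 and 111 bases and had 1 exclusive read for each, and its junction-exclusive pair of 100 and 91 bases had a lower adjusted p, 0.0707.

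The best known pairs of these genes were often outside the rule because one exon was nearly unused. Among listed events of textbook genes with lengths within 9 bases of each other, 19 events in 17 genes were not members. Of these, 14 had the rarer form under 5%. They were picked after their values were seen and are given as a description. In PKM, the glycolytic enzyme pyruvate kinase M, the 2 exons of 167 bases had 436 exclusive reads on the 5′ exon, that of the PKM1 enzyme, and 40483 on the 3′ exon, that of PKM2. The share of the PKM1 exon among these reads was 0.808% to 1.33% over the 6 libraries, and every palbociclib library was below every DMSO library. The inclusion levels of this pair, which also count other reads, had a lower mean with palbociclib but overlapped between the treatments. In FGFR2 the exons of 148 and 145 bases had 1215 and 1 exclusive reads, the first being the exon of the epithelial IIIb receptor. SLC25A3, the mitochondrial phosphate carrier, had 4 and 15407. TPM3 (76 with 76 bases) had 36786 and 34, ACTN4 (86 with 86) 8433 and 74, and MAPK9 (72 with 72) 18 and 1828. TPM1 (76 with 76) had 10253 and 6, with levels of 97.5% ± 0.488 with palbociclib and 98.7% ± 0.299 with DMSO (SD, n = 3). With no minimum on the rarer form, edgeR called 11 events, among them this TPM1 pair (log2 change -0.97, adjusted p = 0.0201) and none in PKM.

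Over all members, most of them not exclusive at their junctions, exon choice differed little between the treatments. The inclusion level, the share of the form with the 5′ exon after the authors' division by effective length, differed between the treatment means by a median of 0.0179 (as a fraction), while the median SD within a group was 0.0254 with palbociclib and 0.0262 with DMSO. A difference of at least 0.1 was found in 545 members (4.14%), which had a median of 48.0 reads per library, and 93 of these had at least 100 reads. The change of the ratio of the 2 forms was tested with edgeR's quasi-likelihood test over all 13179 members, with Benjamini-Hochberg adjustment. In this test 4 events (0.0304%) passed an adjusted p under 0.05, 2 with a higher and 2 with a lower level of the 5′ exon, and none of the 4 was junction-exclusive. At an unadjusted p under 0.05 there were 887 (6.73%). Among members with at least 30 informative reads this was 5.77% at an exclusive share up to 5% and 17.8% over 80%. It was 10 of the 34 junction-exclusive members (29.4%), a set chosen after its values were seen, with a median difference of 0.0308. The reason was not tested. The groups did not overlap in 1572 members (11.9%). The number of calls moved with the settings of the test, from 0 to 52 over 25 alternatives, and from 2 to 21 when 1 library was left out, the highest without palbociclib replicate 3.

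**Figure D3:**
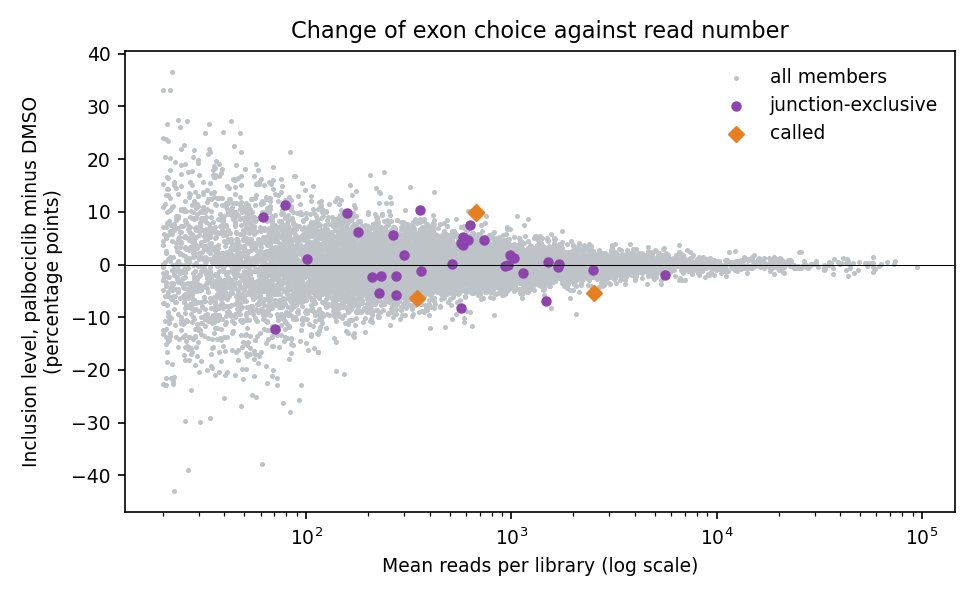
Each point is a member, with its mean reads per library on a log x axis and the difference of mean inclusion level, palbociclib minus DMSO in percentage points, on the y axis. The spread narrows as reads increase, and the 4 called events (diamonds, those of FAM111A and ATP13A3 on the same spot) are not among the 34 junction-exclusive members.

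FAM111A, a serine protease gene tied to DNA replication, had the lowest adjusted p. Its exons of 199 and 88 bases lie on chromosome 11 (59143497-59143695 and 59144809-59144896, plus strand). The level of the 199-base exon was 89.3%, 89.2% and 89.5% in the palbociclib libraries and 80.6%, 78.8% and 79.1% in the DMSO libraries. All palbociclib libraries were above all DMSO libraries, and the log2 change of the ratio was 1.12 (adjusted p = 0.00289). Reads within exon bodies made up 63.8% of the reads of this event over the 6 libraries. The form with the 88-base exon held 10.8% of the reads, so most of the exon-body reads lay in the 199-base exon. The junctions of the 199-base exon had 745 and 271 reads. The event was called in 22 of the 24 alternatives that held it, including each with 1 library left out. As skipped exons, from reads that are partly the same, neither exon passed the edgeR test. The 199-base exon was at 87.6% ± 1.21 against 80.6% ± 1.69 (SD, n = 3, log2 change 0.78, adjusted p = 0.223). The 88-base exon had a log2 change of -0.86 (adjusted p = 0.498). Exclusive reads were 271 for the 199-base exon and 2 for the 88-base exon, with 63 reads joining both and 233 skipping both, so the junctions do not show a swap of one exon for the other. The share of these reads skipping both was 31.1%, 34.8% and 38.8% with palbociclib and 41.9%, 50% and 42% with DMSO.

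The FAM111A locus also changed in RNA level and in open chromatin. Its RNA was 45.1 FPKM with palbociclib and 81.0 FPKM with DMSO (log2 change -0.83, limma adjusted p = 5.95e-07). A peak of 463 bases at chr11:59144637-59145099, which covers the 88-base exon, had 24.9, 25.03 and 21.8 CPM (counts scaled to library size) with palbociclib and 62.5, 57.7 and 63.1 with DMSO. That peak was lower in every palbociclib library (log2 change -1.35, edgeR adjusted p = 4.52e-23). The peak upstream of the 199-base exon, at chr11:59142499-59143380, had 150.3 ± 4.77 and 153.5 ± 13.4 CPM (SD, n = 3 each) and did not pass (adjusted p = 0.779). Whether RNA level or open chromatin bears on the choice of exon was not tested.

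HNRNPA2B1, itself an RNA-binding regulator of splicing, was called lower for a 38-base exon against a 229-base exon on chromosome 7 (26192301-26192338 and 26191422-26191650, minus strand). The level of the 38-base exon was 76.5%, 76.6% and 71.8% with palbociclib and 81.4%, 78.7% and 81.2% with DMSO. The groups did not overlap (log2 change -0.45, adjusted p = 0.0279). As a skipped exon, the 38-base exon was also lower, 72.2% ± 1.71 against 79.9% ± 0.397 (SD, n = 3; log2 change -0.62, adjusted p = 0.0417), from reads that are partly the same. Most informative reads, 1998 of them, skipped both exons and 118 were exclusive. Reads within exon bodies made up 38.6% of the reads of this event, and the form with the 229-base exon held 40.3%. The junctions of the 229-base exon had only 112 and 142 reads over the 6 libraries, so its form was counted mostly by exon-body reads. HNRNPA2B1 RNA was also lower (log2 change -0.57, limma adjusted p = 2.15e-05).

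The other two calls were in ENSG00000269825 and ATP13A3. ENSG00000269825, which has no symbol in the name table and overlaps ZNF83 (zinc finger protein) in RefSeq, had levels of its 143-base exon of 3.56%, 3.83% and 4.53% with palbociclib and 11.7%, 8.13% and 11.3% with DMSO. All palbociclib libraries were lower (log2 change -1.46, adjusted p = 0.0190), and reads of overlapping genes may not be told apart. As a skipped exon, the 143-base exon was at 20.0% ± 6.12 against 34.9% ± 0.883 (SD, n = 3). There it did not pass the edgeR test (log2 change -1.14, adjusted p = 0.436). Exclusive reads were 1 for the 143-base exon and 240 for the 88-base exon, with 41 reads joining both and 21 skipping both. These junctions do not show a swap of one exon for the other. The form with the 143-base exon held 8.34% of the reads of this event, and reads within exon bodies made up 7.21%. The junctions of the 143-base exon had only 1 and 22 reads, so its form was counted mostly by exon-body reads. ATP13A3, a polyamine transporter of the P-type ATPase family, had levels of its 89-base exon of 85.7%, 84.7% and 77.9% with palbociclib and 73.0%, 75.2% and 70.1% with DMSO. The groups did not overlap (log2 change 0.83, adjusted p = 0.0497), and 3092 reads joined the 2 exons while 39 were exclusive. The ENSG00000269825 call held in 17 of 23 alternatives, that of HNRNPA2B1 in 18 of 25 and that of ATP13A3 in 14 of 23. ENSG00000269825 lost its call without palbociclib replicate 1 or 2 or DMSO replicate 1 or 3 (adjusted p from 0.0608 to 0.113), and HNRNPA2B1 lost it without palbociclib replicate 3 or DMSO replicate 1 or 3 (0.113 to 0.138). When 1 library was left out, ATP13A3 kept its call without palbociclib replicate 3 and lost it without each of the others (0.066 to 0.239).

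**Figure D4:**
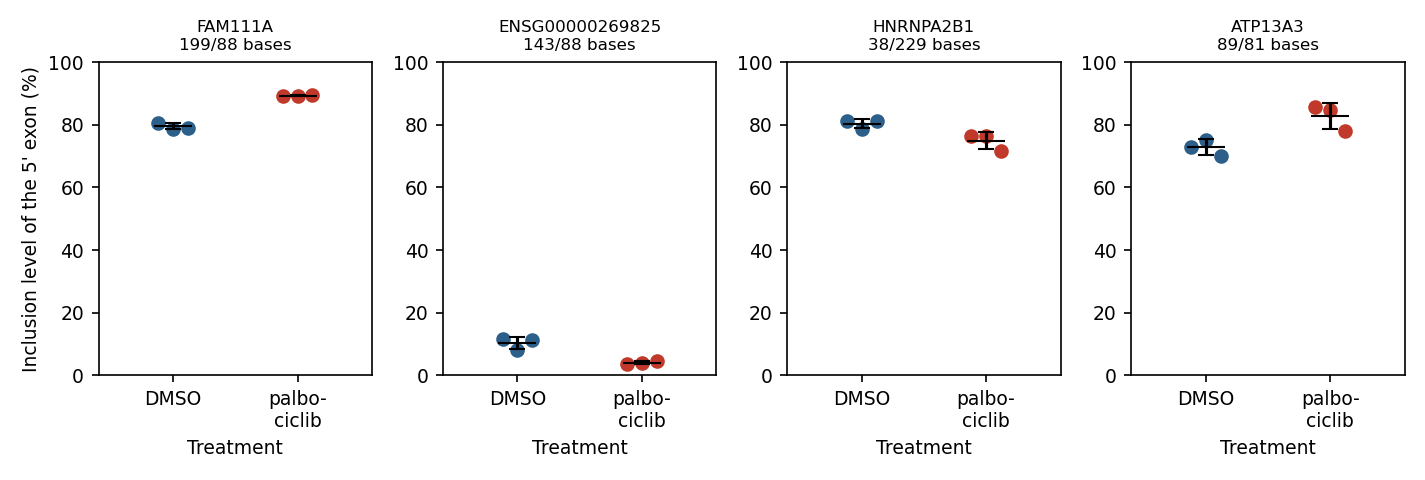
Inclusion level of the 5′ exon (percent) in each library of the 4 called events, with the mean and SD of 3 libraries per treatment as bars. FAM111A stands at 89.2% to 89.5% with palbociclib and 78.8% to 80.6% with DMSO.

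None of the junction-exclusive pairs passed the test, and the closest were ACP1, MACROH2A1 and ACSL1. For ACP1 the level of the 5′ exon was 64.2%, 66.4% and 68.0% with palbociclib and 75.2%, 73.7% and 70.2% with DMSO. The groups did not overlap (log2 change -0.48), but the adjusted p was 0.0544. It ranged from 0.00724 to 0.998 over 25 alternatives, all of the same sign, and was under 0.05 in 9. Counted on exclusive junctions alone, the 5′ exon made up 71.5% ± 4.99 with palbociclib and 78.0% ± 2.45 with DMSO (SD, n = 3). There the groups overlapped, with 75.6% in palbociclib replicate 3 and 75.2% in DMSO replicate 3.

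MACROH2A1 had levels of the 100-base exon of 88.7%, 89.0% and 89.2% with palbociclib and 89.7%, 91.7% and 91.3% with DMSO. The difference was small and the groups did not overlap (log2 change -0.32, adjusted p = 0.0707, from 0.0106 to 0.998 over 23 alternatives and under 0.05 in 6). ACSL1 encodes an enzyme that activates long-chain fatty acids and has 2 exons of 78 bases that lie 66 bases apart. Its 5′ exon stood at 65.1%, 65.1% and 68.0% with palbociclib and 76.5%, 75.2% and 71.0% with DMSO (log2 change -0.57, adjusted p = 0.156), and was called in none of 25 alternatives.

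In 9 of the 32 junction-exclusive groups the treatments did not overlap, where 11.9% of all members did not, and 17 had a positive and 15 a negative log2 change. In FGFR1 the 151-base exon, that of the IIIb receptor, was at 63.8%, 58.9% and 57.9% with palbociclib and 55.5%, 51% and 43.3% with DMSO. These levels did not overlap between the groups, yet the adjusted p was 0.317. On exclusive junctions alone its share was 49.4%, 56.6% and 45.8% with palbociclib and 53.6%, 39.3% and 30.4% with DMSO, and the groups overlapped. OGDH, a subunit of the 2-oxoglutarate dehydrogenase complex, had 20.3% ± 3.48 against 15.6% ± 0.83 for its 91-base exon. FLOT2, a membrane raft protein, had 14.0% ± 0.2 against 9.94% ± 2.60, and UBR2, a ubiquitin ligase of the N-degron pathway, 17.9% ± 1.18 against 12.2% ± 2.74 (all SD, n = 3). None of these pairs passed the test. On exclusive junctions alone the groups overlapped in UBR2 but not in OGDH or FLOT2.

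In some pairs the treatment means lay close together. RAB6A stood at 34.9% ± 1.74 with palbociclib and 34.9% ± 1.61 with DMSO, CALU at 71.8% ± 1.84 and 72.9% ± 1.78, and IDE, the insulin-degrading enzyme, at 93.6% ± 1.06 and 93.5% ± 0.55 (SD, n = 3 each). DIABLO, a mitochondrial protein of cell death, is in the set although its 2 exons abut with no base between them, so that they also fit 1 exon with 2 splice sites.

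**Figure D5:**
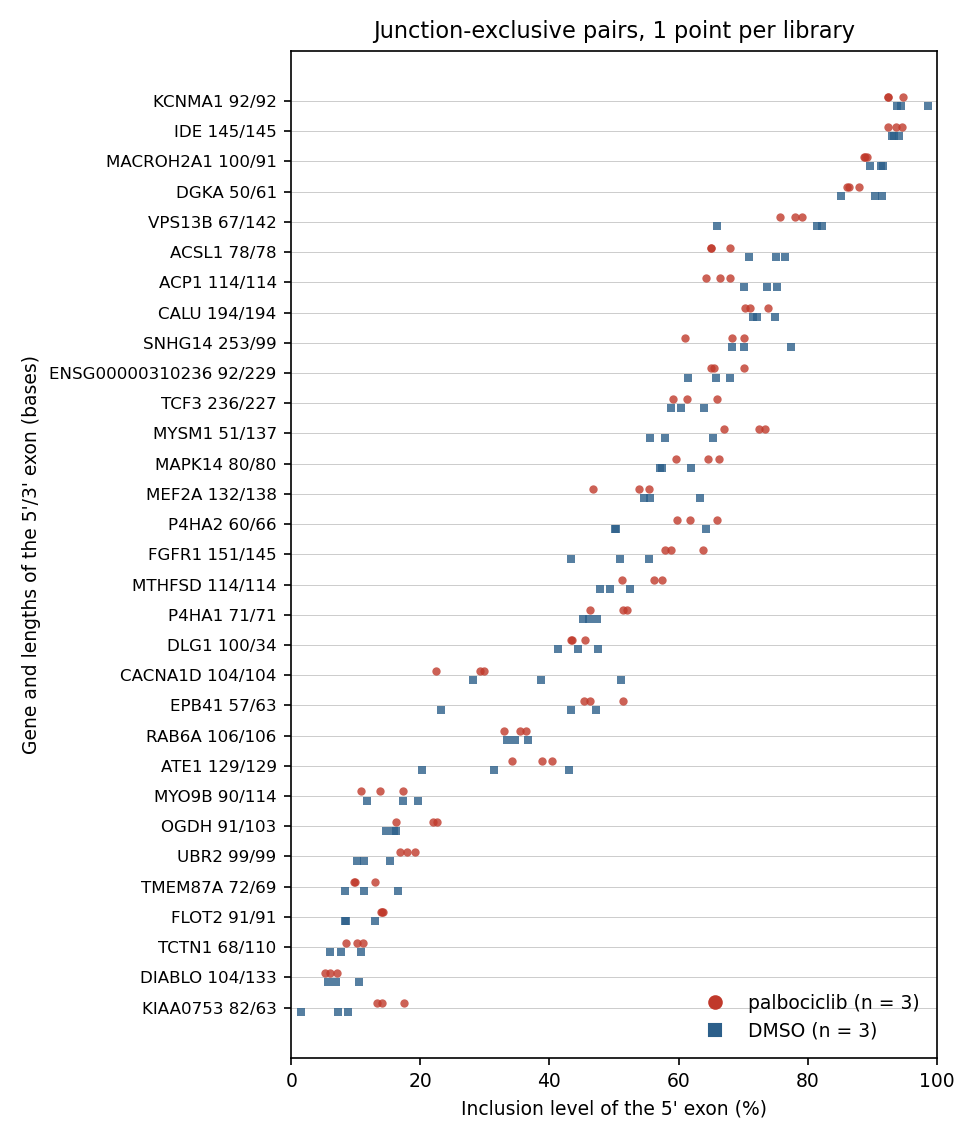
Inclusion level of the 5′ exon (percent) of 31 of the 32 junction-exclusive groups, 1 point per library, with palbociclib as circles and DMSO as squares. RAB6A and IDE points lie together, while those of ACP1 and ACSL1 are lower with palbociclib.

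The largest differences among deeply read events without a call were not in exclusive pairs. ITFG2, a subunit of the KICSTOR complex of nutrient sensing, had levels of its 669-base exon of 33.8%, 28.1% and 30.3% with palbociclib and 54.0%, 52.1% and 48.7% with DMSO (adjusted p = 0.0611), in a region that overlaps NRIP2. GIRGL, a long noncoding RNA, stood at 23.8% ± 2.31 with palbociclib against 40.4% ± 1.12, and SLC30A6, a zinc transporter, at 36.3% ± 4.66 against 52.6% ± 8.02. CACNB4, a calcium channel subunit, stood at 46.8% ± 10.5 with palbociclib against 29.1% ± 4.69. KNL1, a kinetochore scaffold, stood at 59.3% ± 3.06 against 42.2% ± 3.33, and TBC1D31 at 51.8% ± 4.09 against 36.7% ± 5.95 (SD, n = 3). None of these 6 events passed the test at its planned setting. Under some alternatives ITFG2 was called, as with a common dispersion (edgeR adjusted p = 0.0351), and CACNB4 was called without palbociclib replicate 3 (0.044). KNL1 RNA was 1.01 FPKM with palbociclib and 13.2 FPKM with DMSO (log2 change -2.82, limma adjusted p = 2.20e-08). Reads joining its 2 exons were 10, 21 and 11 with palbociclib and 180, 257 and 180 with DMSO. Its palbociclib level therefore rests on far fewer reads than the mean over the 6 libraries implies.

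The 5 pairs with the most reads among those with neither a joining nor a double-skipping event in the skipped exon table, did not pass the test. They lie in HNRNPA2B1 (140 with 102 and 63 with 78 bases), the ribosomal protein genes RPS3 and RPL8, and SERPINA1, the alpha-1 antitrypsin gene. Exclusive reads were few in RPS3 (1 and 2) and SERPINA1 (2 and 6). They were unequal in RPL8 (4 and 690) and in the HNRNPA2B1 pairs (1069 and 2, and 255 and 3). Mean reads per library ran from 18358 to 39009.5. The log2 changes lay between -0.04 and 0.03, and the RPS3 level was 30.4% ± 0.305 against 30.9% ± 0.380.

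Members' genes were called in RNA level far more often than members were called in exon choice. These are different tests on different measures, so the rates do not compare how often each changed. Of 4875 genes with a member and a tested level, 1101 were higher and 1377 lower by limma on log2(FPKM + 1), against 20.9% higher and 22.9% lower of all 15869 genes tested. The median log2 change was -0.02 in these genes and 0.00233 in all genes. Of the calls in genes with a member 44.4% were higher, and after quantile normalization 59.8% were, a shift of the balance with the scaling. In the 183 genes lower by a log2 change of at least 1 there were 455 members, of which none passed the edgeR test of exon choice, where 0.0304% of all members did. An unadjusted p under 0.05 was found in 7.47% of the 455 and in 6.73% of all members.

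Most regulators of exon choice were lower in RNA. Of 24 listed RNA-binding proteins, 16 were lower and 4 higher, with a median log2 change of -0.27, against 22.9% lower and 20.9% higher of all genes tested. The count was 15 lower and 4 higher after quantile normalization. In bulk RNA, fewer cells with a transcript and less of it per cell cannot be told apart. PTBP1, which represses the PKM1 exon among others, was at 82.9 ± 1.61 FPKM with palbociclib and 117 ± 2.17 with DMSO (SD, n = 3; log2 change -0.49, adjusted p = 4.85e-06). TRA2B, an SR-like activator of exons, changed by -0.52 (adjusted p = 2.15e-06), SRSF2 by -0.53 and HNRNPA1 by -0.43. ESRP1, an epithelial splicing factor, was lower (-0.31) and its relative ESRP2 higher (0.24), and MBNL2 was higher (0.46). Their part in the exon levels above was not tested.

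Seen as skipped exons, member exons gave few calls. The skipped exon table held 3467 tested events on exons of 3023 members, of which 4 were called higher and 6 lower (0.288%), against 0.312% of all 13469 skipped exon events tested. ATAC-seq peaks lay within 1 kb of an exon in 1101 members (8.35%). Of the 750 peaks concerned, 57 were higher and 68 lower (16.7%), against 11.9% of all 38121 peaks tested. The peak around both GIRGL exons had 81.0 ± 2.92 against 70.8 ± 2.20 CPM (SD, n = 3; log2 change 0.20, edgeR adjusted p = 0.0153). Among the junction-exclusive members only CACNA1D, a calcium channel gene, had such a peak, and it did not pass (adjusted p = 0.755).

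The authors' deposited table gives its own FDR for these events. There were 132 members (1.00%) in the authors' deposited table with an FDR under 0.05, in 101 exon groups. All 4 events called by edgeR and 2 junction-exclusive pairs were among them. In the authors' deposited table the FDR was 2.87e-05 for FAM111A, 0.039 for ACP1 and 0.0335 for ACSL1. Among the largest differences without an edgeR call, the authors' FDR was 5.48e-05 for ITFG2, 0.00351 for GIRGL and 0.0399 for TBC1D31. It was 0.0912 for SLC30A6, 0.0957 for CACNB4 and 0.134 for KNL1.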

How the data were processed

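RNA-seq splicing tables were deposited by the authors as rMATS output, per the file headers, with junction and exon-body read counts and inclusion levels for 2 forms per event, and a p-value and FDR per event as deposited. The rMATS version is not given in the sources used here. Gene levels were FPKM as deposited by the authors. ATAC-seq counts per peak were deposited by the authors from featureCounts, per the file headers. The submitters' processing notes name GRCh38.

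The 5′ and 3′ exons were taken in transcript order. Junction classes came from the count columns of this table and of the skipped exon table. Form counts were tested with edgeR 4.0.16 (quasi-likelihood; a term per library, form and form by treatment; TMM; trended dispersion), FPKM with limma 3.58.1 on log2(FPKM + 1) for genes with a mean of at least 0.5 FPKM, and peaks with edgeR, in R 4.3.3. All tests were two-sided with Benjamini-Hochberg adjustment over all features tested. DESeq2 1.42.0 was an alternative.

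Named events were the called event with most reads per exon group, the 5 deepest pairs with no joining or double-skipping event listed, the event nearest in length per textbook gene, and the 3 largest uncalled differences each way at a mean of at least 100 reads with groups that did not overlap. The members and lists were chosen with earlier results of these data known, and the junction-exclusive set after its values were seen. Exon sequences were not used here, and 1 junction-exclusive group is counted but not reported by name. Labels do not state that replicate numbers pair libraries.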

Additional observations from a re-analysis of the deposited data

How the results depend on the processing

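Over all settings run, 16 alternatives were planned and 9 were added after the data were seen, among them 8 other settings of edgeR. These 8 were tried because an earlier treatment of the same table had given more calls, and the planned setting was kept as the result. Calls of members numbered 2 higher and 2 lower. With DESeq2 they were 1 and 1, with limma on the log2 ratio 0 and 0 (878 at an unadjusted p under 0.05), with no dispersion trend 0 and 0 (890), with a common dispersion 10 and 11, with a tagwise dispersion 21 and 31, with a robust dispersion 3 and 5, with bias-adjusted quasi-likelihood 4 and 4, and with TMM per column 2 and 12. With a mean of at least 10 reads they were 3 and 4, with no minimum on the rarer form 3 and 8, with the rarer form at 10% or more 3 and 1, with 1 event per exon group 2 and 3 of 6876 events, among them the junction-exclusive ACP1 (adjusted p = 0.0422), and with exclusive junctions alone 1 and 0 of 1006 events. DESeq2 size factors, library totals, column totals, equal library sizes and a mean of at least 50 reads each gave 2 and 2. Leaving out 1 library gave 1 to 11 higher and 1 to 10 lower. The cause was not tested.

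The replicate block gave 10 higher and 16 lower members, 15 higher and 13 lower skipped exon events on member exons (4 and 6 without it), and moved no count of genes or peaks by over 1.5 times. Among the members called with the block were 2 junction-exclusive ones. The numbers were not taken as pairs because the labels do not state a pairing. Deviations of same-numbered libraries had correlations of 0.0114, -0.00149 and 0.0251 over the form ratios. Over RNA levels of genes they were 0.106, -0.00513 and 0.0879.

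Peaks near member exons called without 1 library numbered 33 to 60 higher and 37 to 58 lower, and peaks that overlap an exon 23 and 18.

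Of 60 named events 16 changed sign somewhere, none of them called. With TMM per column the log2 change was -0.0198 for HNRNPA2B1 140/102, -0.015 for RPL8, -0.0218 for PKM and -0.0298 for IDE. With exclusive junctions it was -0.0174 for IDE, -0.0111 for ENSG00000310236, 0.345 for KCNMA1 and -0.682 for VPS13B. It was 0.00555 for KHK with bias-adjusted quasi-likelihood and 0.000423 for RAB6A with limma. Without 1 library it ranged from -0.116 to 0.072 for DLG1, -0.0827 to 0.359 for FGFR3, -0.0948 to 0.145 for IDE, -0.395 to 0.108 for KHK, -0.0353 to 0.0346 for MACROH2A1 107/111, -0.261 to 0.0981 for MAPK9, -0.268 to 0.00918 for MEF2D, -0.00837 to 0.0552 for PKM, -0.0514 to 0.0564 for RAB6A, -0.0532 to 0.163 for TCF3, -0.384 to 0.135 for TMEM87A and -0.368 to 0.266 for VPS13B. At the minimum of 20 reads and 5% the rarer form can rest on single reads per library.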
